A study of Homo sapiens with 18 samples.

Results

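The introns described here are annotated human introns shorter than 100 nucleotides (nt). They are the rows of a leafcutter splicing table that equal an intron of the GENCODE annotation (hg38), are under 100 nt long and have a mean percent spliced in (PSI) from 1% to 99% over 18 libraries. The rule gave 2592 introns in 1738 genes and 2281 clusters. They came from 3300 annotated introns of this length, of which 254 lay below and 454 above the PSI limits. The whole table held 233650 introns in 51819 clusters, of which 152722 met the PSI limits and were tested. Leafcutter joins introns with a splice site in common into a cluster, and PSI is the share of the cluster's junction reads that an intron takes, so the values of a cluster sum to 100%. Only spliced reads enter PSI, which therefore does not measure retention of an intron.

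RNA was sequenced from SHEP.tet21n, a neuroblastoma cell line that carries a MYCN cDNA which doxycycline (Dox) represses, so MYCN comes from the transgene and every group is the same line. Cells received DMSO, which leaves MYCN expressed (MYCN+), or 2 µg/mL Dox (MYCN-), and were transfected with control siRNA (SNRPD3+) or with SNRPD3 siRNA #1 or #2 (SNRPD3-). Each of the 6 groups had 3 libraries of polyadenylated RNA, and MYCN-/SNRPD3+ is called wildtype. Every MYCN- library was therefore also a Dox library, and MYCN and Dox cannot be told apart.

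Splicing removes introns after the U1 particle binds the 5' splice site and the U2 particle binds upstream of the 3' splice site. SNRPD3 encodes SmD3, a protein of the Sm ring that both of these particles carry. Short introns are thought to be recognised as a unit across the intron, whereas the sites of long introns are paired across the exon. An intron can lose reads to a neighbour that uses a different 5' or 3' splice site, or to a longer intron that skips the exon beside it.

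The PSI table held no read counts, so the depth behind each value is unknown and no counting interval was possible. The labels do not say whether the 3 libraries of a group came from separate cultures, and the p-values below measure only the spread between these libraries. Of the genes fixed as cell markers, 3 of 6 adrenergic, 5 of 6 mesenchymal and 2 of 3 other markers had annotated introns in the table, but PSI gives no expression level. The MYCN and SNRPD3 genes themselves were not analysed here, and neither the repression nor the knockdown was checked. Replicate 3 was the lowest library of its group in the mean PSI of the short introns in 5 of 6 groups.

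Several of the short introns on which the results turn are printed 5' to 3' on the transcribed strand from the hg38 reference. Capitals mark the bases at each end of the intron and, where it lies in the window, the end of the competing intron. The first set changed PSI with MYCN or with MYCN and knockdown, and lies between coding exons.
KDM6B intron 16, chr17:7851395-7851477, + strand: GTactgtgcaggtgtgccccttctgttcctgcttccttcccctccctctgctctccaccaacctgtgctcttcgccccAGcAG
USP33 intron 13, chr1:77721926-77722023, - strand, with 24 nt of exon up to the competing 3' splice site: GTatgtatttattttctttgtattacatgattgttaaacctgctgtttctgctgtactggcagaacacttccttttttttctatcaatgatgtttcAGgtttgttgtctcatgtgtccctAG
CCDC90B intron 5, chr11:83273865-83273950, - strand: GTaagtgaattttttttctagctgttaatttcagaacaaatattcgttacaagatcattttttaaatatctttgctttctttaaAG
RIT1 intron 1, chr1:155910805-155910877, - strand: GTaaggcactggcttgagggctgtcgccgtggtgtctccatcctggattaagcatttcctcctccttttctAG
TRMT1 intron 9, chr19:13109839-13109914, - strand: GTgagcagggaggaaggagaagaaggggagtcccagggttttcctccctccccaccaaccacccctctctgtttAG
RPL22L1 intron 2, chr3:170868202-170868297, - strand: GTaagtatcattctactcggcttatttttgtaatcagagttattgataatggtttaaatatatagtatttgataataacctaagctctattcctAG
Intron 31 of PKD1 shows a tandem 3' splice site 3 nt apart, and RIPOR1 carries the shortest printed intron, whose competitor ends 27 nt downstream.
PKD1 intron 31, chr16:2097781-2097867, - strand, with the 3 nt that follow: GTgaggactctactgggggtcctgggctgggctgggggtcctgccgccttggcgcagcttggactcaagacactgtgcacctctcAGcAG
RIPOR1 intron 2, chr16:67540502-67540551, + strand, with the 27 nt that follow: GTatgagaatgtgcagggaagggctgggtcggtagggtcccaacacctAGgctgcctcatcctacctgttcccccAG
The last set lies beside exons that are skipped, and was chosen after its values were seen.
SFT2D2 intron 5, chr1:168236625-168236711, + strand: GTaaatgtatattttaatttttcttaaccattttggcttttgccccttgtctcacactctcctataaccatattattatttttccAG
RAB18 intron 5, chr10:27533854-27533927, + strand: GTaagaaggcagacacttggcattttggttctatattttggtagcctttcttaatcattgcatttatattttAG
CDK10 intron 7, chr16:89693327-89693397, + strand: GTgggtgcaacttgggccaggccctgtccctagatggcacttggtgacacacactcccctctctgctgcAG

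The 2592 short introns were 45 to 99 nt long, with a median of 87 nt and quartiles of 81 and 93 nt. Only 40 were under 70 nt and 550 under 80 nt. The shortest was a 45-nt intron in the 5' UTR of CIRBP, a cold-inducible RNA-binding protein, with a PSI of 3.49 to 6.37% over the 18 libraries. The next were in RIPOR1 (50 nt), TRIM25 (54 nt), DECR2 (56 nt) and SBF1 (59 nt). RIPOR1 and SBF1 both competed with a 77-nt intron that shares their 5' splice site, and PSI of the shorter form stayed at or below 4.60% in RIPOR1 and 3.56% in SBF1. At the length limit, 93 introns of 99 nt had a median PSI of 43.99% and 74 annotated introns of 100 nt, just outside the limit, had 40.6%. At the PSI limits, an intron of WARS2 (1.00%) was just inside and one of IL17RC (0.993%) just outside, and at the other end CPSF1 (98.99%) was inside and COPS6 (99.01%) outside.

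The introns were richer in G and C than annotated introns in general. Their median GC content was 60%, against 43.2% for the 103240 annotated introns tested. Introns below 40% GC included those of USP33 (31.6%), CCDC90B (23.3%) and RPL22L1 (27.1%). GT-AG ends were present in 99.1% of the short introns and 98.9% of all annotated ones, with 23 GC-AG introns and 0 AT-AC introns among the short ones. Chromosome 19 carried 315 of them (12.2%, against 5.69% of all annotated introns tested). A total of 2119 (81.8%) lay between coding exons, 100 in a 5' UTR, 81 in a 3' UTR and 292 in noncoding transcripts. Their lengths were multiples of 3 in 33.6%, and 128 introns were annotated in more than 1 gene, whose reads cannot be assigned to either.

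**Figure D1:**
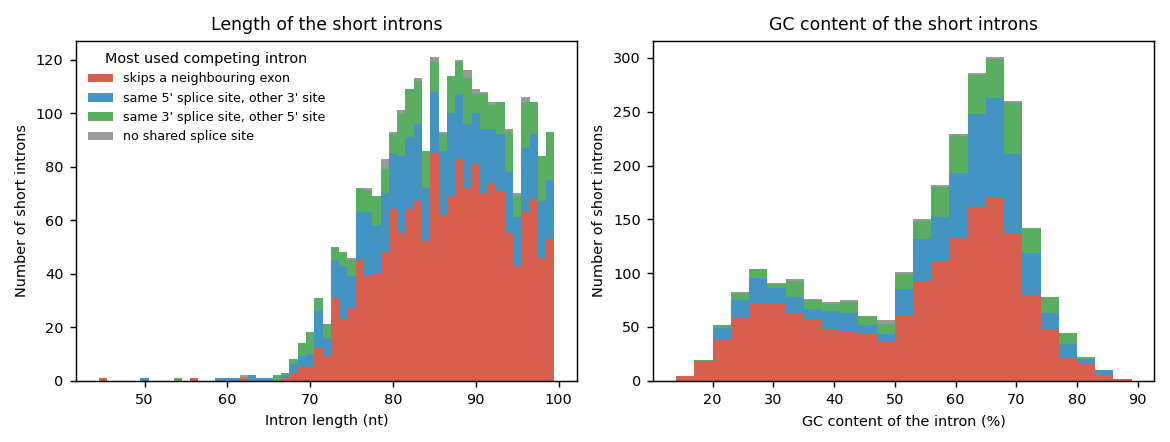
Number of short introns (vertical axis) by intron length in nt (left) and by GC content in percent (right), stacked by the kind of the most used competing intron. Lengths concentrate between 81 and 93 nt, and GC content has a median of 60% with a lower group below 40%.

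All 2592 introns had at least 1 overlapping competitor in their cluster, and 1430 had exactly 1. The most used competitor was longer than the short intron in 2338 cases and unannotated in 1263. The short intron was used more than this competitor in 2002 cases. The competitor skipped a neighbouring exon in 1588 cases, shared the 5' splice site in 638, shared the 3' splice site in 341 and shared no site in 25. Where the competitors shared the 5' splice site, the alternative 3' site lay a median of 18 nt away, and in 110 of 638 (17.2%) it lay 3 nt away, as in KDM6B, PKD1, EML3 and ELL3. For 23649 longer introns of this kind the median was 516 nt and the 3-nt share 9.25%. Alternative 5' sites lay a median of 32 nt away (621 nt for 25638 longer introns), with 8 of 341 at 3 nt and 33 (9.68%) at 4 nt.

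The study asked how MYCN and SNRPD3 together set splicing, and 7 comparisons follow from its groups. MYCN+/SNRPD3- against wildtype changed 6 short introns, of which 1 rose and 5 fell (limma on log2 odds of PSI, Benjamini-Hochberg adjusted p under 0.05 over all 152722 introns). The 9 MYCN+ libraries against the 9 MYCN- libraries changed 14, of which 6 rose and 8 fell. That balance depended on the scale and limits, with 2 of 11 higher on untransformed PSI, 2 of 10 higher at a mean PSI of 0.05 to 0.95 and 1 of 6 higher with a minimum difference of 5 points. Of all tested introns, 0.559% were called in the former and 1.23% in the latter, against 0.231% and 0.540% of the short introns. By direction, the former called 0.193% of the short introns lower and 0.0386% higher, against 0.209% and 0.350% of all introns. The lower share was thus near the background and rests on 5 introns. The latter called 0.309% lower and 0.231% higher, against 0.547% and 0.681% of all introns. These 2 comparisons share 9 libraries and are not independent.

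The remaining comparisons called 0 short introns by limma. MYCN expression with control siRNA gave 84 short introns with an unadjusted p under 0.05, or 3.24% against 6.19% of all introns. Knockdown gave 77 with MYCN repressed (2.97% against 4.69%), 141 with MYCN expressed (5.44% against 7.06%) and 137 over all libraries (5.29% against 7.8%). The interaction of knockdown and MYCN gave 77 (2.97% against 3.98%). In each of these 5 comparisons the unadjusted share of short introns was below that of all introns. After adjustment, 0.0543%, 0.0138%, 0.0196%, 0.0242% and 0.0177% of all introns were called, in the same order. No short intron passed the test that its response to knockdown differed between MYCN+ and MYCN- cells. No other tool was run on PSI. A fit of only the compared groups gave 3 calls for MYCN with control siRNA.

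In MYCN+/SNRPD3- against wildtype, the intron that rose was intron 16 of KDM6B, an H3K27 demethylase. Its PSI was 97.02, 95.1 and 94.7% in wildtype, 98.5, 99.97 and 99.98% in MYCN+/SNRPD3- siRNA #1 and 99.97, 99.97 and 99.2% in siRNA #2. The groups did not overlap, and the difference was 4.01 percentage points (log2 odds 2.08, SE 0.35, adjusted p = 0.024). The competitor is an unannotated 80-nt intron that ends at the first AG of the cAGcAG at the 3' end printed above, and it fell by 4.01 points. MYCN+/SNRPD3+ libraries lay at 98.6 to 99.1% and MYCN-/SNRPD3- libraries at 96.1 to 99.04%. The call was lost without 3 of the 18 libraries taken singly, with an adjusted p of up to 0.108 without wildtype replicate 2. It was also lost in a fit of only the compared groups (adjusted p = 0.123) and with siRNA #1 or #2 alone (adjusted p = 0.0642 and 0.0682).

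USP33, a deubiquitinase, exchanged neighbouring 3' splice sites. PSI of its 98-nt intron 13 was 59.8, 58.9 and 71.7% in wildtype, and 50.5, 52.2 and 46.1% and 45.6, 42.9 and 45.4% with siRNA #1 and #2 in MYCN+ cells. Every MYCN+/SNRPD3- library was below every wildtype library, and the difference was -16.4 points (log2 odds -0.96, SE 0.18, adjusted p = 0.0348). The 122-nt competitor ends at the second AG printed above, removes 24 more nt of exon, and rose by 16.4 points, since the 2 introns make up the cluster. Without wildtype replicate 3, the highest library, the adjusted p was 0.11, and 8 of 18 single omissions ended the call. A fit of only the compared groups (adjusted p = 0.183) and either siRNA alone (adjusted p = 0.121 and 0.0677) ended it too.

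The other 4 introns that fell were at the ends of the PSI range. ANKRD10 (82 nt, noncoding transcript) had a PSI of 8.93, 7.93 and 8.08% in wildtype and 1.90 to 5.12% in MYCN+/SNRPD3- libraries (-5.10 points, adjusted p = 0.0259), while a 12769-nt intron skipping its neighbours rose by 15.6 points (adjusted p = 0.0127). RAB5IF (71 nt, RAB5 interacting factor) went from 2.12 to 3.04% to 0.822 to 1.56% (-1.39 points, adjusted p = 0.0297). RIT1 (73 nt, a RAS-family GTPase) went from 5.10 to 8.31% to 1.32 to 3.36% (-4.31 points, adjusted p = 0.0439). Its most used competitor, 438 nt long with the same 3' splice site, differed by -2.93 points (adjusted p = 0.928). CCDC90B (86 nt, a mitochondrial coiled-coil protein) went from 99.4 to 99.8% to 96.8 to 98.9% (-1.51 points, adjusted p = 0.0476), exchanged against a 3' site 126 nt further on. None of the 4 overlapped between the groups compared, but RIT1 and CCDC90B lost their call in 15 and 13 of 18 single omissions. All 6 calls, KDM6B and USP33 included, were lost in a fit of only the compared groups (adjusted p from 0.123 to 0.189) and with either siRNA alone (0.0576 to 0.121 for #1, 0.0641 to 0.193 for #2). The count of 6 itself fell to 0 without wildtype replicate 1 or 3 and to 1 without wildtype replicate 2 or without MYCN+/SNRPD3- siRNA #2 replicate 3.

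**Figure D2:**
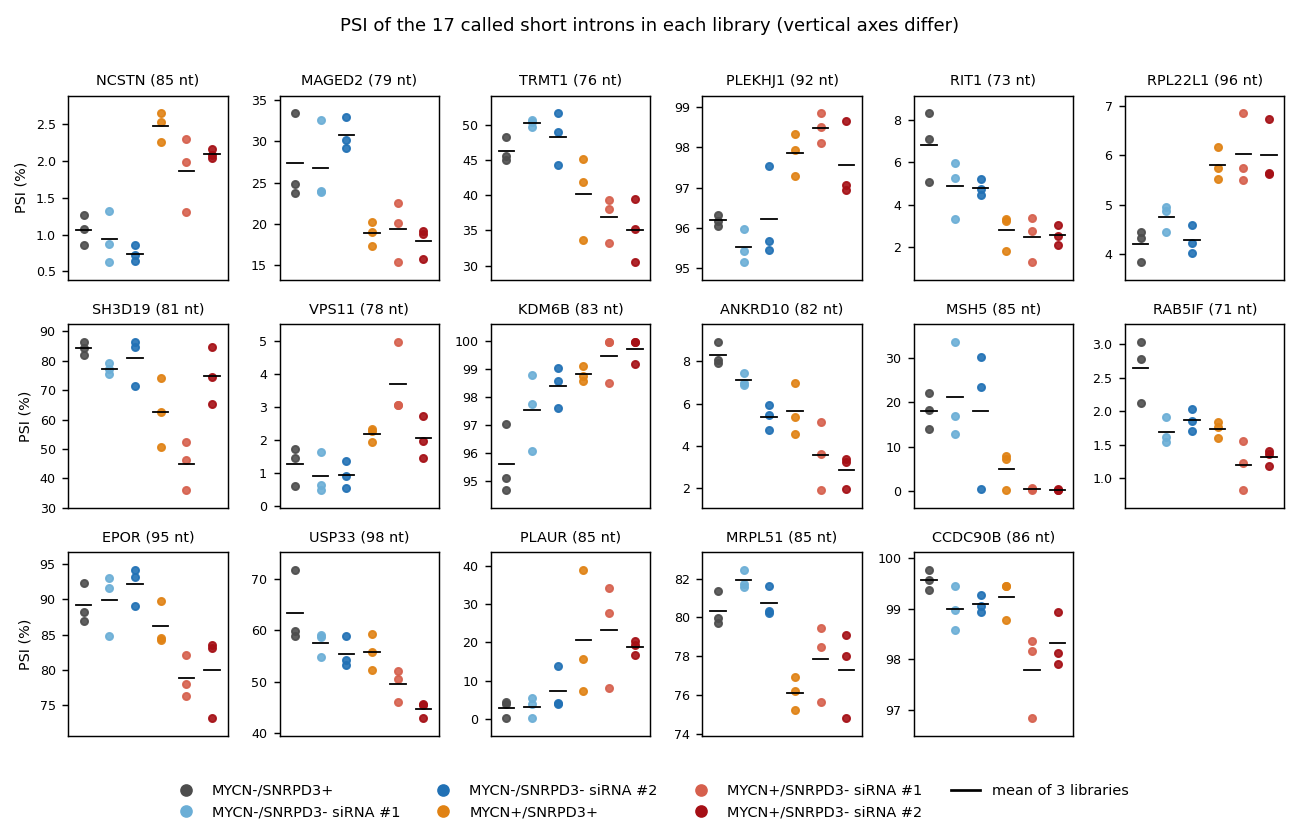
PSI in percent (vertical axis, a separate range in each panel) of the 17 short introns called by PSI, with 1 point per library, a bar at the mean of 3 libraries, and groups by colour. RPL22L1, MAGED2 and MRPL51 separate all 9 MYCN- from all 9 MYCN+ libraries, while PLAUR, MSH5 and SH3D19 vary widely within groups.

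Between MYCN+ and MYCN- cells, 10 of the 14 changes kept their call without any single library, among them NCSTN, MAGED2, TRMT1 and RPL22L1. On untransformed PSI, 6 of the 14 lost it: NCSTN (adjusted p = 0.0773), RPL22L1 (0.0522), VPS11 (0.0907), KDM6B (0.0637), PLAUR (0.0998) and MSH5 (0.051). With siRNA #1 or #2 alone, which then carried the weight of both siRNAs, 10 and 12 of the 14 lost it. NCSTN encodes a subunit of gamma-secretase, and an 85-nt intron annotated in its 3' UTR, in a transcript marked for nonsense-mediated decay, rose. Its PSI ranged from 0.629 to 1.32% (median 0.860%) in MYCN- and from 1.301 to 2.64% (median 2.16%) in MYCN+ libraries (+1.23 points, log2 odds 0.73, SE 0.09, adjusted p = 0.00208). The ranges overlapped by 1 library on each side. RPL22L1, a ribosomal protein paralogue, had 3.84 to 4.95% (median 4.45%) in MYCN- and 5.50 to 6.85% (median 5.75%) in MYCN+ libraries for its 96-nt intron 2, with no overlap (+1.54 points, adjusted p = 0.0192). The exchange was with a 163-nt intron whose 3' splice site lies 67 nt downstream, and which fell by 1.54 points.

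MAGED2, of the melanoma antigen family, lost use of its 79-nt first intron in the 5' UTR. PSI was 23.8 to 33.4% (median 29.2%) in MYCN- and 15.4 to 22.5% (median 19.1%) in MYCN+ libraries, without overlap (-9.64 points, adjusted p = 0.014). An 869-nt intron with the same 3' splice site and an upstream 5' site rose by 13.5 points (adjusted p = 0.00555). TRMT1, a tRNA methyltransferase, fell from 44.3 to 51.6% (median 49.0%) to 30.5 to 45.1% (median 38.0%) for intron 9 (-10.9 points, adjusted p = 0.015), and the 319-nt intron that skips the neighbouring exon rose by 14.3 points (adjusted p = 0.0439). The lowest MYCN- library and the highest MYCN+ library of TRMT1 overlapped.

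The other introns that rose with MYCN were in PLEKHJ1 (+1.99 points, adjusted p = 0.0158), VPS11, a subunit of vesicle tethering complexes (+1.61 points, adjusted p = 0.021), KDM6B (+2.16 points, adjusted p = 0.0216) and PLAUR, the urokinase receptor (+16.5 points, adjusted p = 0.0403). PLAUR ranged from 0.101 to 13.95% in MYCN- and 7.35 to 39.0% in MYCN+ libraries, so single libraries spanned more than the difference. The others that fell were in RIT1 (-2.89 points, adjusted p = 0.0163), SH3D19 (-20.2 points, adjusted p = 0.0196), ANKRD10 (-2.92 points, adjusted p = 0.0218), MSH5, a meiotic MutS homologue (-17.1 points, adjusted p = 0.0235), EPOR, the erythropoietin receptor (-8.71 points, adjusted p = 0.0302), and MRPL51, of the mitochondrial ribosome (-3.91 points, adjusted p = 0.0455). MSH5 reached 33.7% in a MYCN- library and 0.437% in another. MRPL51 did not overlap, with 79.7 to 82.5% in MYCN- and 74.8 to 79.4% in MYCN+ libraries, yet its call ended in 16 of 18 single omissions. PLAUR, EPOR and MSH5 lost theirs in 14, 10 and 4.

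Beyond the calls, short introns whose libraries did not overlap between groups were fewer than among all introns in all 4 pairwise comparisons. MYCN with control siRNA gave 232 such introns (8.95%, against 11.8% of all introns), knockdown gave 44 with MYCN repressed (1.70% against 2.52%) and 63 with MYCN expressed (2.43% against 3.54%), and MYCN+/SNRPD3- against wildtype gave 107 (4.13% against 6.53%). MYCN with control siRNA set 1 group against 1, whereas the other pairwise comparisons set both siRNA groups against 1. Complete separation is rarer with more libraries, so each share can be read only against that of all introns in the same comparison. Over all libraries, 0 short introns separated knockdown from control (0.0642% of all introns) and 3 separated MYCN+ from MYCN- (0.116% against 0.353%). With knockdown in MYCN+ cells, 44 of the separated short introns were lower and 19 higher. These were 1.70% and 0.733% of the short introns, against 1.62% and 1.91% of all introns. In MYCN+/SNRPD3- against wildtype 73 were lower and 34 higher. These were 2.82% and 1.31%, against 2.92% and 3.62% of all introns. The lower shares were thus near those of all introns, and the higher shares were below them. Some of the separated short introns spread widely within a group, such as that of LINC02939, a noncoding RNA, with 96.9, 74.6 and 34.4% in wildtype.

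Among these separated introns, 3 in coding genes are described as single cases, and none passed the test. For knockdown the separated shares were 1.70% against 2.52% of all introns, and 2.43% against 3.54%. These cases are therefore not given as effects of knockdown. PKD1 intron 31 had 64.4, 65.6 and 65.8% in wildtype and 66.6 to 80.9% in MYCN-/SNRPD3- libraries (+10.9 points, adjusted p = 1.0), at the cAGcAG end printed above. PKD1 has near-identical pseudogene copies that can share its reads. TM7SF2, a sterol reductase, had 38.5, 33.5 and 44.2% in MYCN+/SNRPD3+ and 52.5 to 74.6% in MYCN+/SNRPD3- libraries for its 81-nt intron 8 (+22.7 points, adjusted p = 0.232), while its local share differed by 0.0398 points. MYO19, a mitochondrial myosin, had, for a 94-nt intron annotated in a 3' UTR, 69.7, 69.7 and 72.1% and 48.7 to 61.7% in the same groups (-15.0 points, adjusted p = 0.319).

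PSI in a large cluster moves with every intron of that cluster, so each short intron was also measured by its local share, its PSI divided by the summed PSI of it and all introns overlapping it. Local share separated the groups more often. In MYCN+/SNRPD3- against wildtype it called 43 of 2300 short introns, 42 lower and KDM6B higher (limma, Benjamini-Hochberg adjusted p under 0.05 over 145993 introns), or 1.87% against 0.938% of all introns. The background was 0.301% higher and 0.636% lower. Between MYCN+ and MYCN- it called 42, 37 lower and 5 higher (1.83% against 1.54%, with 0.599% higher and 0.943% lower among all introns). All introns include unannotated ones. Among annotated introns of every length the shares called were 1.17% against wildtype and 1.86% between MYCN+ and MYCN-. The share of short introns called with MYCN was thus near that of annotated introns. In the other 5 comparisons 0 short introns were called, against 0.0315% of all introns for MYCN with control siRNA, 0.0110% and 0.0123% for knockdown without and with MYCN, 0.0123% for the interaction and 0.0130% for knockdown over all libraries. At an unadjusted p under 0.05 these comparisons gave 133, 114, 251, 109 and 267 of the 2300 short introns. Among all 145993 introns the same threshold gave 10140, 7787, 13412, 6478 and 15130. As shares of these totals, the short introns lay below all introns for MYCN with control siRNA and for knockdown without MYCN. In the other comparisons they lay above. The difference between the shares was not tested.

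The 43 calls against wildtype fell by over 1.5 times in 15 of the 18 single omissions, libraries outside the comparison included. Without wildtype replicate 1, 2 or 3 the number was 1, 2 or 3, and without replicate 3 of MYCN+/SNRPD3- siRNA #1 or #2 it was 7 or 6. Leaving out replicate 1, 2 or 3 of MYCN+/SNRPD3+ gave 22, 13 or 17. Without MYCN-/SNRPD3- siRNA #1 replicate 1 or 2 it was 11 or 27, and without siRNA #2 replicate 1, 2 or 3 it was 16, 27 or 21. Leaving out replicate 1 of MYCN+/SNRPD3- siRNA #1 or #2 gave 15 or 11, and the remaining 3 omissions gave 29 to 38. The 42 calls between MYCN+ and MYCN- fell to between 21 and 40 with 1 library left out, and by over 1.5 times in 10 of 18 omissions. These were wildtype replicates 1 and 2 (24 and 23), MYCN+/SNRPD3+ replicates 1 and 2 (25 and 27), replicate 3 of MYCN+/SNRPD3- siRNA #1 and #2 (27 and 24), MYCN-/SNRPD3- siRNA #1 replicate 2 (22) and all 3 replicates of MYCN-/SNRPD3- siRNA #2 (27, 21 and 27). SFT2D2 was the 1 intron of the 12 followed one by one against wildtype that stayed called in all 18 omissions, and in a fit of only the compared groups 11 of the 12 lost their call.

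All 42 introns with a lower local share against wildtype competed with an intron that skips the exon beside them. They made up 3.23% of the 1301 short introns of that class tested, against 1.58% of 44012 longer annotated introns of the same class called in either direction, 651 lower and 42 higher. The difference between these shares was not tested. The median difference over all 1301 was -2.25 points with 80.02% lower, against -1.56 points and 73.9% for the longer ones. Short introns whose competitor shared the 5' splice site differed by a median of -0.258 points, those with a shared 3' splice site by -0.143 points. A median near 0 was also seen for longer introns of those kinds, at -0.0119 and +0.185 points. With MYCN+ against MYCN-, 34 of the exon-skipping class were lower and 2 higher, or 2.77% of the 1301. For the 44012 longer introns of the class, 811 were lower and 131 higher, or 2.14%. These shares were close, and their difference was not tested.

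**Figure D3:**
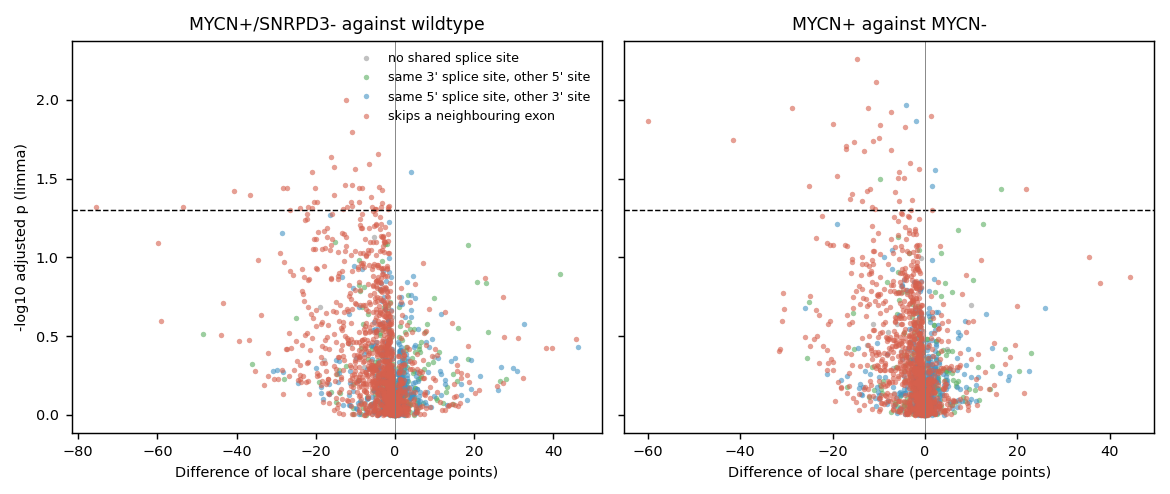
Difference of local share in percentage points (horizontal axis) against -log10 of the adjusted p from limma (vertical axis) for 2300 short introns in MYCN+/SNRPD3- against wildtype (left) and MYCN+ against MYCN- (right), 1 point per intron, coloured by the kind of competitor. The dashed line marks an adjusted p of 0.05, and on the left 42 of the 43 points above it lie below 0 and belong to introns beside a skipped exon.

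Averaged over the 1588 short introns beside a skipped exon, local share was 80.4, 80.4 and 79.9% in wildtype (80.2 ± 0.31%, SD, n = 3). It was 79.0 ± 1.3% and 79.6 ± 0.83% in MYCN-/SNRPD3- with siRNA #1 and #2, and 78.6 ± 0.60% in MYCN+/SNRPD3+. MYCN+/SNRPD3- libraries had 76.98, 77.1 and 75.1% with siRNA #1 and 77.4, 77.8 and 75.5% with siRNA #2. All 6 of these lay below every library of the other 4 groups, although the highest (77.76%) was close to MYCN-/SNRPD3- siRNA #1 replicate 3 (77.80%). Replicate 3 was the lowest library in 5 of the 6 groups, also in wildtype and with siRNA #2 in MYCN- cells (78.7%), but not in MYCN+/SNRPD3+. Longer introns of the class went from 69.6% in wildtype to 67.0 and 67.5% in the 2 MYCN+/SNRPD3- groups. Group means for a shared 5' splice site stayed within 67.6 and 68.1%, and for a shared 3' splice site within 60.4 and 60.9%. Mean PSI of all 2592 short introns had group means of 43.95 to 44.7%.

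**Figure D4:**
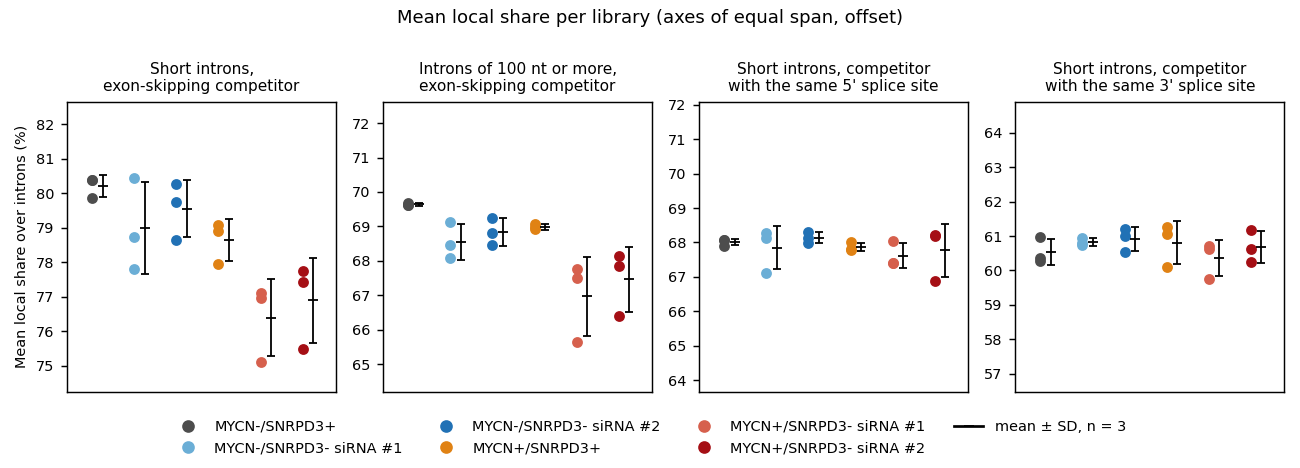
Mean local share in percent (vertical axis, equal span in each panel) in each library for short and longer introns beside a skipped exon and for short introns with an alternative 3' or 5' splice site, with group mean and SD of 3 libraries. In the first panel the 6 MYCN+/SNRPD3- libraries, between 75.1 and 77.8%, lie below the 12 others.

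A lower local share means by its definition that the overlapping introns rose relative to the short one, so the competitors' own values restate the same reads and are given as a description. Of 886 exon-skipping competitors tested on PSI, 28 were higher and 2 lower in MYCN+/SNRPD3- against wildtype (3.39%, against 0.559% of all introns), with a median of +1.59 points. Between MYCN+ and MYCN-, 39 were higher and 4 lower (4.85%, against 1.23% of all introns). All introns are of every kind, and the exon-skipping competitors of longer introns were not counted. Longer introns of the class were also mostly lower in local share against wildtype (651 lower and 42 higher), so these shares are not particular to short introns. Knockdown in MYCN+ cells called 1, higher, and knockdown over all libraries called 0 by limma. Of 574 competitors sharing the 5' splice site, 2 were higher and 1 lower against wildtype, and of 317 sharing the 3' splice site 0 were called. Competitors can be shared, and 1482 different ones served the 1588 introns.

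SFT2D2 had the smallest adjusted p against wildtype. The local share of its 87-nt intron 5 was 97.98, 97.2 and 95.9% in wildtype, 85.1 to 91.9% in MYCN+/SNRPD3+, 89.0 to 93.4% in MYCN-/SNRPD3- and 77.1 to 88.2% in MYCN+/SNRPD3- libraries. The wildtype values lay above all others (-12.3 points, adjusted p = 0.01), and MYCN+ against MYCN- gave -7.44 points (adjusted p = 0.0119). The competitor was an unannotated 1529-nt intron, whose PSI rose by 6.85 points (adjusted p = 0.00677). PSI of the short intron itself differed by -3.51 points against wildtype (adjusted p = 0.485), in a cluster that holds other introns.

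RAB18, a GTPase of lipid droplets and the endoplasmic reticulum, had a local share of 99.7, 99.3 and 99.5% in wildtype and 91.99 to 97.6% in MYCN+/SNRPD3- libraries for the 74-nt intron 5 (-4.31 points, adjusted p = 0.0221). An annotated 4022-nt intron skipping the exon rose by 2.26 points (adjusted p = 0.0192). NDUFS8, a subunit of respiratory complex I, fell from 92.6, 94.4 and 90.6% to 74.98 to 80.1% (-15.4 points, adjusted p = 0.0267). UBE2D1, a ubiquitin-conjugating enzyme, fell from 92.7, 93.1 and 94.2% to 79.2 to 87.6% (-10.0 points, adjusted p = 0.0273). None of these 3 overlapped between the groups compared.

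MTMR6, a lipid phosphatase, and FLAD1, an FAD synthase, had larger differences. The local share of the 77-nt intron 12 of MTMR6 was 85.8, 80.4 and 85.9% in wildtype, 77.2 to 81.0% in MYCN+/SNRPD3+, 73.1 to 82.2% in MYCN-/SNRPD3- and 48.3 to 71.8% in MYCN+/SNRPD3- libraries (-20.2 points, adjusted p = 0.0363). The 6 MYCN+/SNRPD3- libraries were the lowest of the 18, and replicate 3 was the lowest of each triplet. FLAD1 had 83.8, 85.4 and 84.8% in wildtype and 56.4 to 68.4% in MYCN+/SNRPD3- libraries for the 81-nt intron 4 (-20.9 points, adjusted p = 0.0289). The largest difference, -75.6 points (adjusted p = 0.0481), was in TEX12, a protein of the synaptonemal complex, whose 92-nt intron 3 is annotated in 2 genes. It had 97.3 to 98.7% in wildtype, 97.4 to 99.3% in MYCN+/SNRPD3+, 1.28 to 62.3% in MYCN-/SNRPD3- and 0.991 to 50.04% in MYCN+/SNRPD3- libraries. The 12 knockdown libraries of TEX12 lay below the 6 control libraries, yet knockdown over all libraries did not pass the test (-69.2 points, adjusted p = 0.077).

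Some adjacent short introns share the skipping competitor and are not separate observations. KMT2B, an H3K4 methyltransferase, had introns 28 (88 nt) and 29 (76 nt) on either side of 1 skipped exon, with differences of -13.2 points (adjusted p = 0.0496) and -12.8 points (adjusted p = 0.0347), and the 254-nt intron spanning both rose by 7.47 points (adjusted p = 0.0291). Their cluster PSI gave different values, +1.25 points (adjusted p = 0.946) and -8.78 points (adjusted p = 0.24). FASTK introns 7 and 8, both 73 nt, differed by -12.4 (adjusted p = 0.0112) and -25.2 points (adjusted p = 0.0351) between MYCN+ and MYCN- and shared an unannotated 477-nt competitor with an 80-nt intron of the gene that did not pass the test (-22.2 points, adjusted p = 0.0544). The 42 introns against wildtype had 41 different competitors in 41 genes, of which 22 were annotated.

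**Figure D5:**
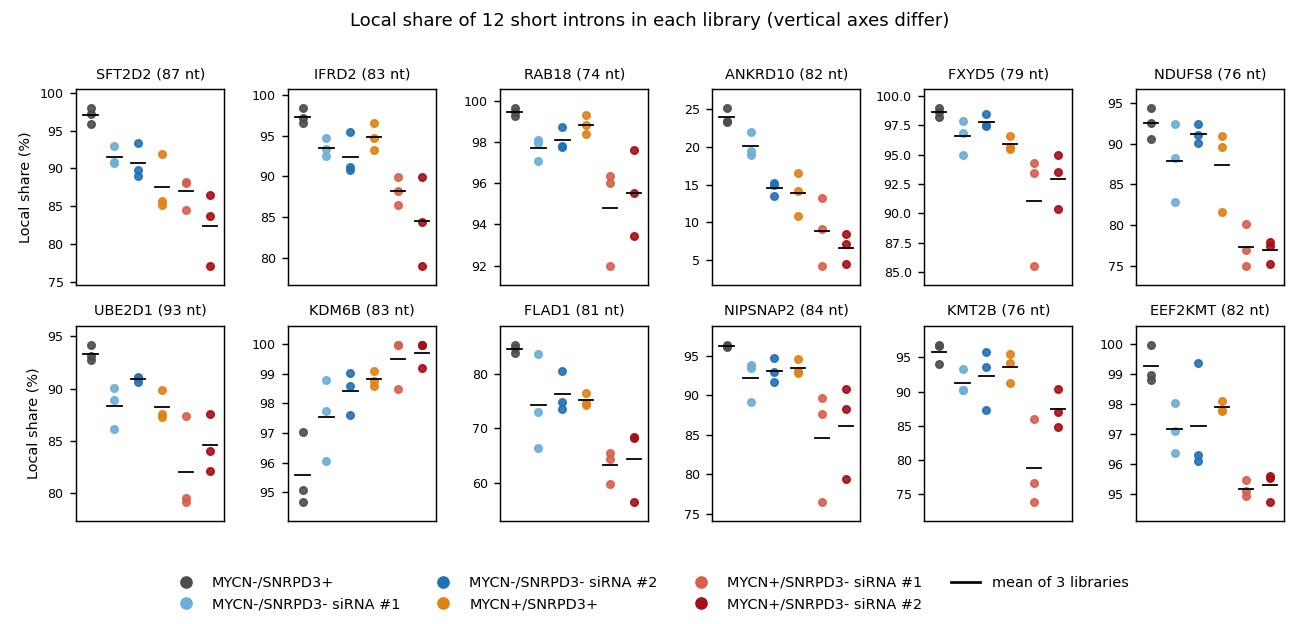
Local share in percent (vertical axis, a separate range in each panel) in each library for the 12 short introns with the smallest adjusted p against wildtype, with a bar at the mean of 3 libraries and groups by colour. In 11 panels the MYCN+/SNRPD3- libraries lie below the wildtype libraries, and in KDM6B above.

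Between MYCN+ and MYCN-, the smallest adjusted p belonged to RAB4B, an endosomal GTPase. Its 80-nt intron 4, which is annotated in 3 genes, had a local share of 73.0 to 90.5% (median 87.2%) in MYCN- and 65.6 to 76.4% (median 72.3%) in MYCN+ libraries (-14.8 points, adjusted p = 0.00545), and wildtype replicate 3 was the 1 MYCN- library within the MYCN+ range. The 3421-nt skipping competitor rose by 7.83 points (adjusted p = 0.0023). PPP6R1, a regulatory subunit of protein phosphatase 6, had 66.0 to 90.4% (median 86.9%) and 35.5 to 77.1% (median 50.7%) for intron 8 (-28.7 points, adjusted p = 0.0112). Its unannotated 397-nt competitor rose by 6.77 points (adjusted p = 1.02e-04). P3H3, a collagen prolyl hydroxylase, was 1 of 2 introns with a shared 5' splice site that fell, from 94.1 to 96.5% to 87.6 to 94.2% (-4.19 points, adjusted p = 0.0108), against a 3' site 4 nt away. BBS1 gave the largest value, -60.0 points (adjusted p = 0.0136), with single libraries from 1.48 to 63.2% in MYCN+ cells.

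The 42 introns lower against wildtype covered a wide range of GC content. Their median was 38.7% (range 21.3 to 81.6%), against 58.8% for the 1259 introns of the class that were not called, while the 34 lower between MYCN+ and MYCN- had 58.3%. By GC class, a split made after the values were seen, 23 of 331 introns below 40% were lower against wildtype (6.95%), 9 of 366 from 40 to 60% (2.46%) and 10 of 604 at 60% or more (1.66%). Longer introns beside a skipped exon had 1.65%, 1.44% and 0.867% in the same classes. Median differences were alike, at -2.42, -1.996 and -2.44 points, so the classes differed in calls more than in the typical difference. Mean local share of the lowest class was 72.3 ± 0.42% in wildtype and 67.7 ± 2.8% and 68.7 ± 2.6% in MYCN+/SNRPD3- with siRNA #1 and #2 (SD, n = 3), and that of the highest class was 82.9 ± 1.0, 78.2 ± 0.61 and 78.7 ± 0.91%. In the lowest class replicate 3 was the lowest library in 5 of the 6 groups, at 64.6 and 65.9% in the MYCN+/SNRPD3- groups. The part of that library difference in the calls was not tested beyond the counts without it given above.

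CDK10, a cyclin-dependent kinase named by the study, has 1 short intron among those described, and BIRC5 has 0. The values here compare spliced forms and say nothing of retention of the intron. PSI of the 71-nt intron 7 was 44.8, 42.2 and 50.5% in wildtype, 39.1 to 46.0% in MYCN+/SNRPD3+, 36.5 to 48.2% in MYCN-/SNRPD3- and 32.5 to 44.8% in MYCN+/SNRPD3- libraries. The groups overlapped, and the difference from wildtype was -6.44 points (adjusted p = 0.507). Its local share was 98.8, 97.5 and 98.4% in wildtype, 95.9 to 98.6% in MYCN-/SNRPD3- and 91.9 to 96.2% in the 9 MYCN+ libraries, where it fell by 3.25 points (adjusted p = 0.0252). The competitor, an unannotated 846-nt intron that skips the next exon, rose by 1.34 points with MYCN (adjusted p = 0.0215). The local share call ended in 6 of 18 single omissions, with an adjusted p of up to 0.0555 without MYCN-/SNRPD3- siRNA #1 replicate 2.

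Short introns were also read by gene groups that had been listed with earlier results of these data known. By PSI, 0 of 49 short introns in spliceosome and RNA processing genes, 0 of 59 in cell cycle and apoptosis genes and 0 of 29 in mitochondrial metabolism genes were called by limma in any comparison. DNA repair and replication genes had 1 of 46 (MSH5, lower with MYCN), ribosome and translation genes 2 of 32 (RPL22L1 higher and MRPL51 lower with MYCN) and ubiquitin and proteasome genes 1 of 81 (USP33, lower against wildtype). Chromatin and transcription genes had 1 of 103 (KDM6B), and lysosome, vesicle and glycosylation genes 2 of 72 (RAB5IF and VPS11). These shares stand against 0.559% and 1.23% of all introns in the comparisons concerned, and counts this small describe single introns.

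By local share against wildtype, SRRM2, a protein of nuclear speckles, was the 1 spliceosome intron lower (-1.42 points, adjusted p = 0.0474), with 99.4 to 99.99% in wildtype and 98.01 to 98.6% in MYCN+/SNRPD3- libraries. MSH5, NDUFS8, EEF2KMT and EIF2AK2 (the latter 2 in the translation group), both KMT2B introns, UBE2D1, TRIM16, RAB18 and RAB5IF were also lower, and 0 of the cell cycle introns were called by limma. The median difference ran from -0.324 points in the spliceosome group to -1.80 points in the lysosome group, beside -1.17 points over all 2300. With MYCN, CDK10, MSH5, NDUFS8, UBE2D1, RAB22A and RAB4B were lower and VPS11 and KDM6B higher. TAFAZZIN, lower with MYCN, entered the chromatin group only through the spelling of its symbol and is a cardiolipin enzyme.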

How the data were processed

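Poly(A)-selected, stranded libraries of total RNA were sequenced. Alignment by the authors was to hg38, using STAR 2.5.0a with ENCODE settings, and SAMtools 1.3.1 is named in the submitters' processing notes. The authors deposited a leafcutter table whose values are the fraction of a cluster's junction reads taken by each intron in each library. No read counts were in the table, so the depth is unknown, and clusters carry no strand. A second table held the authors' own FDR and PSI differences of pairwise group comparisons and was not used.

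Introns were matched to GENCODE v44 (hg38), while the study used an earlier release. PSI was fitted as log2((PSI + 0.01)/(1 - PSI + 0.01)) with limma 3.58.1 (R 4.3.3) in 1 model of all 6 groups with 12 residual degrees of freedom, the siRNAs averaged, and p-values were Benjamini-Hochberg adjusted over 152722 introns with a mean PSI of 0.01 to 0.99. Local share was fitted alike over 145993 introns. Python 3.11.15, pandas 2.3.3, numpy 2.4.6, scipy 1.17.1 and matplotlib 3.10.9 were used otherwise. The test was run on simulated data with known shifts. There the deviations of each intron were shuffled over the libraries, so a shift shared by many introns of 1 library was not covered. Local share was planned as an alternative to PSI and is reported in full because it gave more calls.

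Introns are named if called by PSI, if among the 5 with the largest difference without overlap in each of 4 pairwise comparisons, if among the 3 with the smallest p for knockdown in each gene list, if in CDK10 or BIRC5, if among the 5 shortest, or if next to a limit of the rule. Those named for their local share, and the GC classes, were chosen after their values were seen. The introns and gene lists were chosen with earlier results of these data known. On log2 odds of PSI, same-numbered libraries had a mean correlation of 0.00615 of their deviations (at most 0.0638, 45 pairs). The numbers were therefore not taken as pairs in the main fit. That check was not run on local share, whose mean over the short introns was lowest in replicate 3 in 5 of 6 groups. A replicate block raised the local share calls from 43 to 70 and from 42 to 65, and the PSI calls against wildtype from 6 to 11. Whether replicate numbers share an effect was not tested further.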

Additional observations from a re-analysis of the deposited data

How the results depend on the processing

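The count of 6 short introns called by PSI in MYCN+/SNRPD3- against wildtype was 2 with a mean PSI of 0.05 to 0.95, 2 in a fit of only the compared groups, 0 at an adjusted p under 0.01, 2 with a minimum difference of 5 percentage points, 1 with siRNA #1 alone, 0 with siRNA #2 alone, 11 with the replicate block, 43 by local share, and 3 without replicate 3 of both MYCN+/SNRPD3- groups. Leaving out 1 library gave 0 to 7. None of the 6 was among those called in a fit of only the compared groups or with siRNA #1 alone. For MYCN over all libraries (14 by PSI) the counts were 1 at an adjusted p under 0.01, 6 with the minimum difference, 4 and 2 with siRNA #1 and #2 alone, 42 by local share, 9 in protein-coding transcripts only and 9 without those replicate 3 libraries, and 10 to 17 with 1 library left out. MYCN with control siRNA (0) gave 3 in a fit of only the compared groups and 0 to 1 with 1 library left out. Knockdown with MYCN expressed (0) gave 1 without those replicate 3 libraries and 0 to 1 with 1 library left out. For MYCN over all libraries, by PSI and by local share, a single siRNA carried the weight of both. Its groups therefore counted more than the control groups, and an equal average was not run.

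By local share, the 43 calls against wildtype became 28 with an offset of 0.001, 1 in a fit of only the compared groups, 0 at an adjusted p under 0.01, 8 and 2 with siRNA #1 and #2 alone, 70 with the replicate block, 5 without those replicate 3 libraries, and 1 to 38 with 1 library left out. The 42 calls for MYCN over all libraries became 2 at an adjusted p under 0.01, 1 and 1 with siRNA #1 and #2 alone, 65 with the replicate block, 15 without those replicate 3 libraries, and 21 to 40 with 1 library left out. Knockdown over all libraries (0) gave 1 with the offset and 0 to 1 with 1 library left out. MYCN with control siRNA (0) gave 1 on the untransformed scale, 2 in a fit of only the compared groups and 0 to 1 with 1 library left out, and knockdown with MYCN expressed (0) gave 0 to 1. The cause of these changes was not tested, apart from the fewer libraries or introns that some settings hold. Of the introns followed one by one, 20 entries by PSI and 25 by local share, 0 reversed direction under these settings. The alternatives for local share, and the omission of both replicate 3 libraries, were chosen after seeing the data.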
